A study of Mus musculus with 9 samples.

Results

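The mRNAs of the cytosolic ribosomal proteins were followed in AML12, a mouse hepatocyte cell line, with and without fatty acid loading and the plant alkaloid sinomenine. Members were the genes whose symbol marks a ribosomal protein of the large subunit (Rpl, Rplp0 to Rplp2) or the small subunit (Rps, Rpsa), without pseudogenes and without the Rps6k kinases, at a mean of at least 1 FPKM. FPKM is a read count scaled by the length of the gene and the depth of the library. Of the 30350 genes in the deposited table, 299 symbols matched the pattern. The rule left 81 genes, 47 of the large and 33 of the small subunit. The remaining gene, Rps19bp1, is matched by its name and encodes a protein that binds Rps19, not a ribosomal protein. It counts among the 81 but in neither subunit. The lowest members were Rpl21 with a mean of 1.20 FPKM and Rps10 with 1.48 FPKM. Just outside lay Rpl36al with 0.556 FPKM and Rpl24 with 0.540 FPKM.

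RNA was sequenced in 9 libraries, 3 per group. FFA-SIN cells received free fatty acids for 24 hours and then free fatty acids together with 200 µM sinomenine for 48 hours. FFA cells received free fatty acids alone and NC cells only DMEM/F12 medium; how long these cultures ran, and which fatty acids were used, is not given in the sources used here. All groups are the same line, derived from a mouse with a TGF-alpha transgene. Whether the 3 libraries of a group come from different cultures is not said, and if they do not, the p-values reflect technical spread alone. Library depth, read from the steps of the FPKM values, was 43201346 to 71391844 reads, and 11659 genes were tested. The hepatocyte transcripts Alb (555.5, 271.3 and 197.6 FPKM on average in FFA-SIN, FFA and NC), Ttr (697.4, 558.2 and 428.7 FPKM), Trf (1019, 771.0 and 474.3 FPKM) and Hnf4a (103.9, 117.6 and 131.1 FPKM) were present. Apoa1 (2.58, 3.57 and 3.92 FPKM), Serpina1a (6.37, 7.04 and 6.40 FPKM) and Fgb (5.57, 2.24 and 1.65 FPKM) were low, and the hepatocyte markers did not share a direction. Krt19, a bile duct keratin, averaged 977.9, 1258 and 1352 FPKM, close to the hepatocyte keratin Krt8 with 1046, 1258 and 1420 FPKM. Of the 9 markers of other liver cells that the table lists, 3 reached 1 FPKM (Krt19, Cd68 and Des), and Ptprc, Pecam1, Pdgfrb and Epcam averaged below 0.02 FPKM in every group. Des, a marker of stellate cells and fibroblasts, averaged 2.94, 5.81 and 9.73 FPKM in FFA-SIN, FFA and NC, a log2 fold change of -1.44 in FFA-SIN against NC (limma adjusted p = 1.62e-08); its part in the results below was not tested.

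Each ribosome carries nearly every one of these proteins once, with the acidic stalk proteins present in more copies, so cells make them in matched amounts. Much of this matching takes place in translation. Ribosomal protein mRNAs start with a C followed by a run of pyrimidines, the TOP motif, through which mTORC1 and the RNA-binding protein Larp1 govern how well they are translated. Transcription of the genes is also raised by Myc. RNA-seq reads mRNA levels only, and in bulk samples fewer cells and less RNA per cell cannot be told apart.

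The start sites of 8 members are shown because they carry, or lack, this pyrimidine run and because their values are given below. Each line gives 15 bases before and 15 after the start, 5′ to 3′, from RefSeq promoters of build GRCm38.p6, with the longest run of C or T that begins between positions -20 and +10 in capitals. The windows lie at chr4:86857353-86857382 (minus strand) for Rps6, chr10:128549154-128549183 (minus) for Rpl41, chr17:33824548-33824577 (minus) for Rps28, chr7:45128731-45128760 (minus) for Rpl13a, chr7:3704026-3704055 (plus) for Rps9, chr4:152325711-152325740 (plus) for Rpl22, chr3:28805493-28805522 (plus) for Rpl22l1 and chr5:115559452-115559481 (plus) for Rplp0.
Rps6: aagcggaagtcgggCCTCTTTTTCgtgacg
Rpl13a: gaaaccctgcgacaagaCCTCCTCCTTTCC
Rps9: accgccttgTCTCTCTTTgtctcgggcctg
Rpl22l1: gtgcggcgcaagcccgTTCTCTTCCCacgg
Rplp0: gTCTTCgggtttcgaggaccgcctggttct
Rps28: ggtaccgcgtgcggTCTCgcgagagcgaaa
Rpl22: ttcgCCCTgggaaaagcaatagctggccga
Rpl41: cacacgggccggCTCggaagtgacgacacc
The run of Rpl13a goes on past the window, to 14 bases. The promoter table held 61 of the 81 members, and 27 of these (44.3%) had a run of at least 8 bases of C or T on the coding strand that starts in this interval. Among all 27025 promoters 14.0% had one, and among 69 promoters of mitochondrial ribosomal proteins, whose mRNAs are not TOP mRNAs, 14.5%. The RefSeq start is a single annotated position per promoter, so a run that lies elsewhere is missed. Between members with and without the run, the median log2 fold change was the same in FFA-SIN against FFA (0.04 in both) and in FFA against NC (0.07 in both), and was 0.10 and 0.09 in FFA-SIN against NC.

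Levels ran from Rplp0, a stalk protein, with a mean of 1520 FPKM over all libraries, to Rpl21. After Rplp0 came Rplp1 with 1362 FPKM, Rpl8 with 980.2 FPKM and Rps3a1 with 873.0 FPKM. At the low end Rpl34 had 4.80 FPKM, Rpl29 2.12 FPKM and Rps10 1.48 FPKM. These levels are per length of all annotated exons together, which for several members is far longer than the usual mRNA: Rps24 has 393 coding bases but 6256 bases of exons, against 345 and 499 for Rplp1. The low end is also where reads lay in processed copies of the gene. Copies, defined as other genes in the table with at least 90% identity over at least 60% of the coding sequence, held 79.4% of the combined reads of Rpl21, 97.8% of those of Rps10, 96.7% of those of Rpl29 and 95.6% of those of Rpl34. A low FPKM of these members therefore leaves out most reads of their sequence.

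Summed over the 81 members, FPKM was 23043, 21874 and 23216 in the FFA-SIN libraries, 22034, 21412 and 22472 in the FFA libraries, and 21576, 19700 and 21566 in the NC libraries. The lowest sum of each group was that of replicate 2, and the groups overlapped except that all FFA-SIN libraries lay above all NC libraries. Scaled to the summed FPKM of all genes, FFA-SIN and NC overlapped too. Members then made up 7.21%, 6.87% and 7.3% in FFA-SIN libraries, 6.94%, 6.78% and 7.07% in FFA, and 6.87%, 6.38% and 6.91% in NC. As a share of all reads, members took 3.90% ± 0.10 in FFA-SIN, 3.79% ± 0.08 in FFA and 3.60% ± 0.17 in NC (SD, n = 3 each). On that scale all FFA-SIN libraries again lay above all NC libraries. With the reads of copies added the shares were 4.48% ± 0.08, 4.37% ± 0.09 and 4.16% ± 0.17. The ratio of large to small subunit sums overlapped between the groups, at 1.72 ± 0.05 in FFA-SIN, 1.75 ± 0.02 in FFA and 1.75 ± 0.03 in NC.

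**Figure D1:**
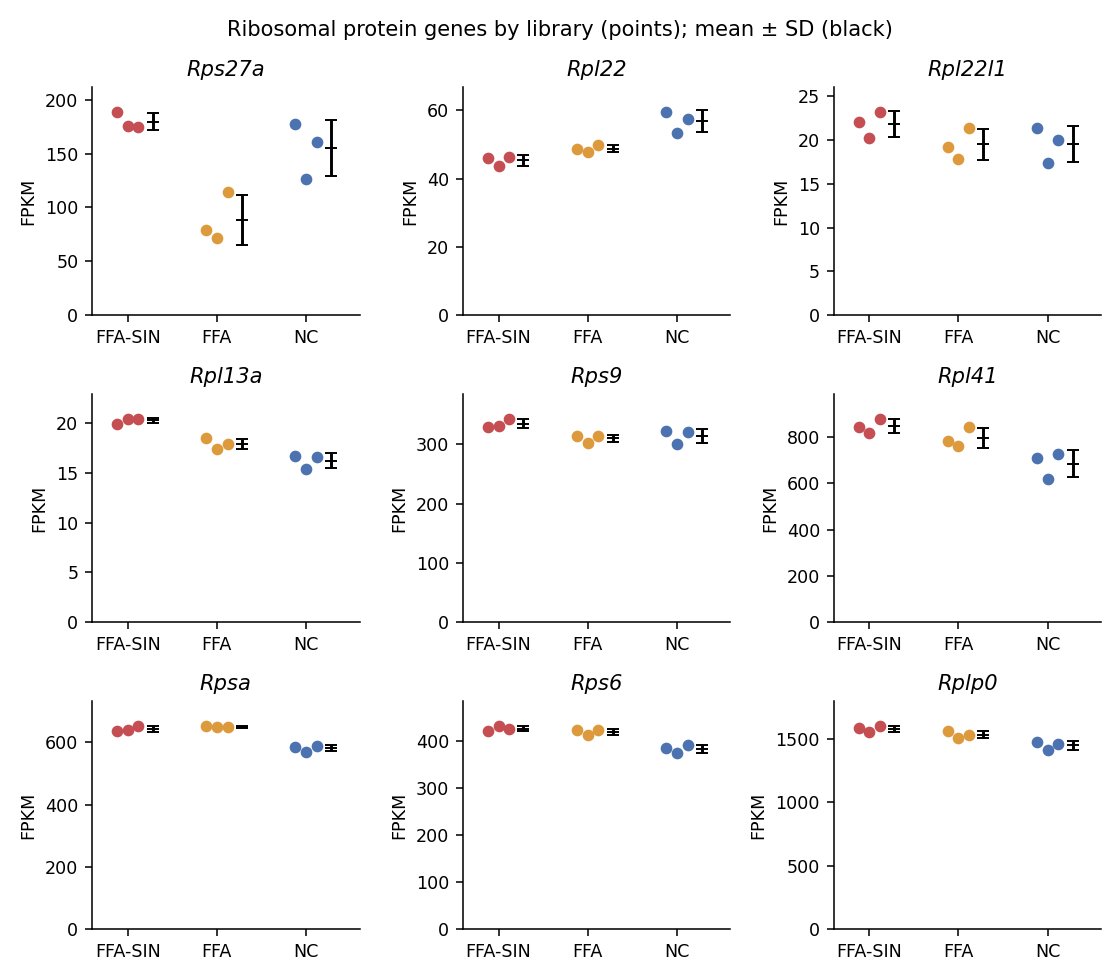
FPKM of 9 members in each library (points) with the mean ± SD of the group (black), for FFA-SIN, FFA and NC from left to right; every axis starts at 0. Rps27a was low in the 3 FFA libraries, Rpl22 was highest in NC, and Rpl13a, Rpl41, Rpsa, Rps6 and Rplp0 were lowest in NC.

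Adding sinomenine to the fatty acids changed few of these genes. In FFA-SIN against FFA, 3 members rose, Rps27a, Rpl13a and Rps9, and 0 fell, that is 3.7% of the members, while 31.2% of all tested genes passed at an adjusted p below 0.05 (limma on log2(FPKM + 1), Benjamini-Hochberg over all tested genes); 13.9% of them were higher and 17.3% lower. At an unadjusted p below 0.05, 7 members were higher and 3 lower. The median log2 fold change of the members was 0.04, against -0.01 over all tested genes. It was 0.07 without FFA-SIN replicate 2 and 0.02 without FFA replicate 2. In 63 members the fold change was above 0 and in 18 below. The 3 FFA-SIN libraries lay above the 3 FFA libraries in 16 members and below them in 7, where 20.4% and 25.1% of all tested genes did (45.5% in either direction). Without NC replicate 2, which enters through the shared estimate of the spread, 10 members were called higher and 3 lower.

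Rps27a encodes ubiquitin fused to a protein of the small subunit and is one of the genes from which cells make ubiquitin. It had 188.9, 175.2 and 175.0 FPKM in FFA-SIN libraries, 78.9, 71.4 and 114.7 FPKM in FFA libraries, and 177.4, 126.5 and 160.6 FPKM in NC libraries. All FFA libraries lay below all others. The log2 fold change was 1.05 ± 0.17 (SE) in FFA-SIN against FFA (limma adjusted p = 0.00138) and -0.82 ± 0.17 in FFA against NC (adjusted p = 0.00468), while FFA-SIN against NC gave 0.23 ± 0.17 (adjusted p = 0.292). Fau, which encodes a ubiquitin-like protein fused to a small subunit protein, passed in none of the 3 comparisons, with means of 355.5, 344.3 and 332.8 FPKM in FFA-SIN, FFA and NC.

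Rpl13a, a large subunit protein that in human monocytes can also leave the ribosome and repress inflammatory mRNAs, was the member called higher in all 3 comparisons of the gene's own reads. It had 19.9, 20.4 and 20.4 FPKM in FFA-SIN, 18.5, 17.4 and 17.9 FPKM in FFA, and 16.7, 15.4 and 16.6 FPKM in NC. The groups did not overlap with each other. The log2 fold change was 0.17 ± 0.04 in FFA-SIN against FFA (adjusted p = 0.00525), 0.14 ± 0.04 in FFA against NC (adjusted p = 0.0132) and 0.31 ± 0.04 in FFA-SIN against NC (adjusted p = 7.22e-05). With the reads of its copies added, the change in FFA against NC was 0.12 and no longer passed (adjusted p = 0.0519). Rps9, a small subunit protein near the entry of the mRNA channel, had 330.1, 331.3 and 343.3 FPKM in FFA-SIN and 313.5, 302.5 and 314.2 FPKM in FFA, a log2 fold change of 0.11 ± 0.03 (adjusted p = 0.0237). Its adjusted p was 0.0777 without FFA-SIN replicate 3 and 0.0797 without FFA replicate 2.

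Fatty acids alone were followed by small, mostly upward shifts. In FFA against NC, 19 members rose and 3 fell, 27.2% of the members, where 37.5% of all tested genes passed (19.1% higher, 18.4% lower). The share of members called was thus below that of all genes. The median log2 fold change was 0.07 in members and 0.00 over all tested genes, and the 19 that rose did so by 0.07 to 0.22. Without NC replicate 2 the median of the members was 0.02. The FFA libraries lay above the NC libraries in 24 members and below in 4, against 24.8% and 24.1% of all tested genes (48.9% in either direction). The number called higher was 8 without FFA replicate 1, 8 without FFA replicate 3 and 10 without NC replicate 2. Calls that held in every leave-one-out fit were those of Rpl13a, Rpl14, Rps26, Rps6 and Rpsa, higher, and of Rpl22 and Rps27a, lower.

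The largest rise in FFA against NC was that of Rpl41, the shortest ribosomal protein, with 78 coding bases. It had 842.7, 819.8 and 879.6 FPKM in FFA-SIN, 781.8, 762.3 and 843.0 FPKM in FFA, and 711.3, 620.2 and 726.9 FPKM in NC. Its log2 fold change was 0.22 ± 0.06 in FFA against NC (adjusted p = 0.0211; not called without FFA replicate 3) and 0.31 ± 0.06 in FFA-SIN against NC (adjusted p = 0.00241). Rpl14, of the large subunit, had 329.0, 324.0 and 325.1 FPKM in FFA and 297.2, 278.7 and 299.0 FPKM in NC, a log2 fold change of 0.16 ± 0.03 (adjusted p = 0.00169). Rpsa, a small subunit protein also known as the laminin receptor, had 635.7, 640.3 and 653.0 FPKM in FFA-SIN, 653.2, 648.3 and 647.8 FPKM in FFA, and 584.5, 569.8 and 587.7 FPKM in NC. Its FFA-SIN and FFA libraries overlapped, and both groups lay above NC by 0.15 ± 0.02 and 0.16 ± 0.02 on the log2 scale (adjusted p = 0.000182 and 0.000189). Rps26, which lines the exit of the mRNA channel, rose by 0.15 ± 0.03 (adjusted p = 0.00478). Rps23, a protein of the decoding centre, rose by 0.14 ± 0.05 (adjusted p = 0.0446), although an FFA library with 337.4 FPKM lay below an NC library with 339.0 FPKM. The call of Rps23 was lost without any FFA-SIN replicate, FFA replicate 1 or 3, or NC replicate 2 or 3, with adjusted p up to 0.145.

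**Figure D2:**
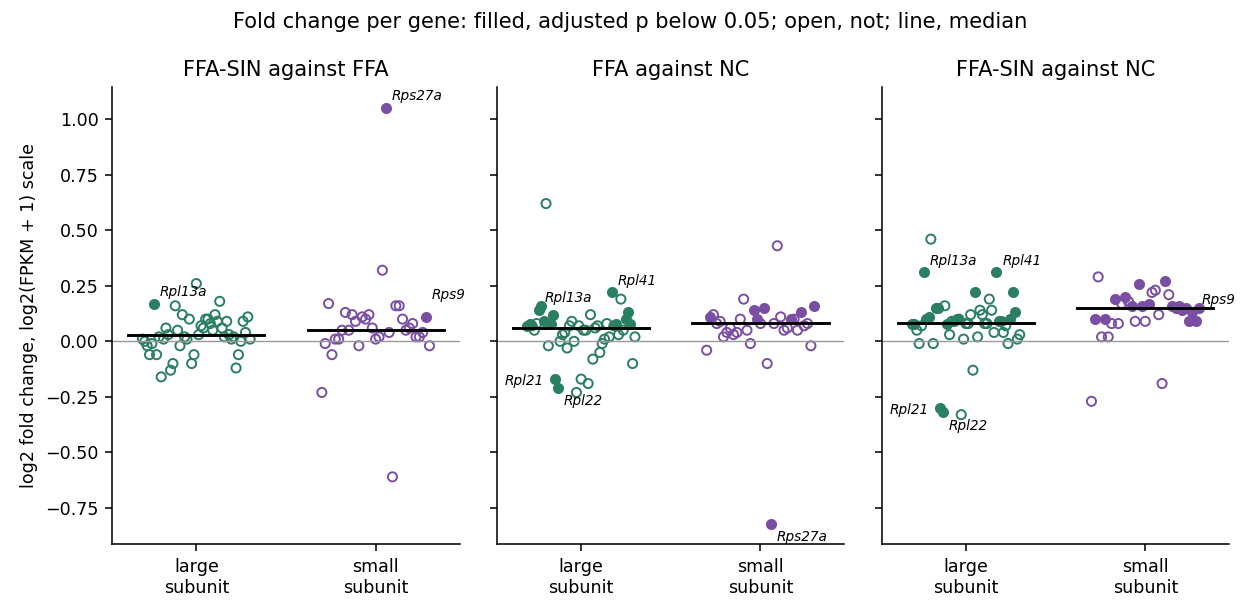
Log2 fold change of each of the 47 large subunit genes (green) and 33 small subunit genes (purple) in the 3 comparisons; filled points passed at an adjusted p below 0.05, open points did not, and black lines are medians. Most points lie just above 0, the medians are 0.03 to 0.15, and Rps27a stands apart in both comparisons that include FFA.

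The 3 members that fell in FFA against NC were Rps27a, Rpl22 and Rpl21. Rpl22, a large subunit protein without which mice are viable, had 46.2, 43.6 and 46.3 FPKM in FFA-SIN, 48.7, 47.9 and 49.9 FPKM in FFA, and 59.7, 53.4 and 57.6 FPKM in NC. The groups were in that order without overlap. Its log2 fold change was -0.21 ± 0.04 in FFA against NC (adjusted p = 0.00306), -0.32 ± 0.04 in FFA-SIN against NC (adjusted p = 0.000161) and -0.10 ± 0.04 in FFA-SIN against FFA (adjusted p = 0.0832). Its paralogue Rpl22l1, whose mRNA rises in mice that lack Rpl22, had 22.1, 20.3 and 23.3 FPKM in FFA-SIN, 19.3, 17.9 and 21.4 FPKM in FFA, and 21.4, 17.3 and 20.0 FPKM in NC. In the fit without a replicate block it passed in none of the 3 comparisons. Its log2 fold changes were 0.16 ± 0.09, 0.00 ± 0.09 and 0.16 ± 0.09 in FFA-SIN against FFA, FFA against NC and FFA-SIN against NC. Rpl21 had 1.05, 0.980 and 0.927 FPKM in FFA-SIN, 1.19, 1.20 and 1.13 FPKM in FFA, and 1.40, 1.43 and 1.497 FPKM in NC. Its call in FFA against NC was lost without FFA replicate 1 or 3 or NC replicate 2 or 3. With the reads of its copies added, its fold change of -0.17 in FFA against NC became -0.08 (adjusted p = 0.217) and that of -0.30 in FFA-SIN against NC became -0.07 (adjusted p = 0.2).

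The widest difference was between FFA-SIN and NC. In FFA-SIN against NC, 35 members rose and 2, Rpl22 and Rpl21, fell, 45.7% of the members, where 51.3% of all tested genes passed (24.7% higher, 26.5% lower). All 19 members called higher in FFA were called higher here, and 16 more were; since both comparisons use the same NC libraries, this is no second observation. The median log2 fold change was 0.10 in members and -0.01 over all tested genes, and the 35 that rose did so by 0.08 to 0.31. Without NC replicate 2 the median of the members was 0.065. FFA-SIN libraries lay above NC libraries in 41 members and below in 2, against 29.1% and 31.0% of all tested genes (60.1% in either direction). The number called higher was 23 without FFA-SIN replicate 1, 22 without FFA-SIN replicate 3 and 23 without NC replicate 2.

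Among members past the threshold in FFA-SIN against NC, the highest after Rpl13a and Rpl41 were Rps28, Rps23, Rpl35 and Rpl9. Rps23 had 393.7, 380.9 and 394.0 FPKM in FFA-SIN and 339.0, 302.9 and 332.3 FPKM in NC, a log2 fold change of 0.26 ± 0.05 (adjusted p = 0.00148). Rps28, at the exit of the mRNA channel, had 132.9, 117.4 and 125.2 FPKM in FFA-SIN and 111.0, 90.2 and 111.3 FPKM in NC. It rose by 0.27 ± 0.10 (adjusted p = 0.04) and lost the call without FFA-SIN replicate 1 or 3, FFA replicate 1 or NC replicate 2 (adjusted p up to 0.122). Rpl35, near the exit of the peptide tunnel, rose by 0.22 ± 0.07 (adjusted p = 0.0216), a call lost without FFA-SIN replicate 1 or 3 or NC replicate 2. Rpl9 had 187.5, 182.9 and 185.2 FPKM in FFA-SIN, 177.2, 169.3 and 176.1 FPKM in FFA, and 166.2, 151.3 and 160.6 FPKM in NC, and rose by 0.22 ± 0.03 (adjusted p = 0.000537).

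Members with roles of their own did not move as a block. Rplp0, the base of the stalk that recruits elongation factors, had 1581, 1555 and 1602 FPKM in FFA-SIN, 1559, 1509 and 1532 FPKM in FFA, and 1478, 1410 and 1456 FPKM in NC. It rose by 0.08 ± 0.02 in FFA (adjusted p = 0.0231) and by 0.13 ± 0.02 in FFA-SIN (adjusted p = 0.0019) against NC. Its stalk partners did not pass in the fit without a replicate block: Rplp1 had log2 fold changes of 0.11 ± 0.06, -0.10 ± 0.06 and 0.01 ± 0.06, and Rplp2 of 0.01 ± 0.05, 0.02 ± 0.05 and 0.03 ± 0.05, in FFA-SIN against FFA, FFA against NC and FFA-SIN against NC. Rps6, the small subunit protein phosphorylated by the S6 kinases, had 419.7, 431.3 and 424.3 FPKM in FFA-SIN, 421.6, 411.5 and 421.4 FPKM in FFA, and 384.8, 373.5 and 389.6 FPKM in NC. It rose by 0.13 ± 0.02 in FFA (adjusted p = 0.00166) and by 0.15 ± 0.02 in FFA-SIN (adjusted p = 0.000338) against NC. Rpl10, a large subunit protein added late in assembly, rose by 0.07 ± 0.02 (adjusted p = 0.0248) and 0.08 ± 0.02 (adjusted p = 0.0081) in the same comparisons. In FFA against NC the call of Rplp0 was lost without FFA replicate 1 or 3 or NC replicate 2, and that of Rpl10 without any FFA replicate or NC replicate 2. Rpl5 and Rpl11, which with 5S RNA can bind Mdm2 and so stabilise p53, had means of 255.1 and 122.2 FPKM in FFA-SIN, 250.2 and 124.0 FPKM in FFA, and 239.1 and 118.3 FPKM in NC. Rpl5 rose by 0.09 ± 0.03 in FFA-SIN against NC (adjusted p = 0.0217; not called without FFA-SIN replicate 1 or 2 or NC replicate 2), and Rpl11 passed in no comparison. Rps3, at the entry of the mRNA channel, rose by 0.16 ± 0.05 in FFA-SIN against NC (adjusted p = 0.0175), a call lost without FFA-SIN replicate 1 or 3.

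Median changes were above 0 in both subunits and higher in the small than in the large subunit in each comparison. The median log2 fold change of large and small subunit genes was 0.03 and 0.05 in FFA-SIN against FFA, 0.06 and 0.08 in FFA against NC, and 0.08 and 0.15 in FFA-SIN against NC. Of the 47 large and 33 small subunit genes, 1 and 2 were called higher in FFA-SIN against FFA. In FFA against NC 12 and 7 were, and in FFA-SIN against NC 17 and 18. Of all tested genes, 13.9%, 19.1% and 24.7% were called higher in these comparisons. In FFA-SIN against FFA, the FFA-SIN libraries lay above the FFA libraries in 6 large and 10 small subunit genes. They lay below them in 7 large and 0 small subunit genes, none of the 7 past the threshold. Of all tested genes 20.4% lay above and 25.1% below, and no direction is read from these counts. Whether the subunits differ was not tested. Leaving out single libraries moved the difference of the medians, large minus small, from -0.05 to -0.01 in FFA-SIN against FFA, from -0.04 to 0.00 in FFA against NC and from -0.07 to -0.04 in FFA-SIN against NC. The quartiles of the fold changes in FFA-SIN against NC were 0.04 and 0.12 for large and 0.09 and 0.18 for small subunit genes, so the subunits overlapped.

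For some members the spread between replicates exceeded the differences between groups. The SD between replicates within groups, on the log2 scale, had a median of 0.058 over the 81 members and 0.050 over all tested genes. It was 0.056 for large and 0.066 for small subunit genes. Counting error, taking 2 reads as 1 fragment because most values stepped in read pairs, gave a median SD of 0.014, and the replicate SD was 4.04 times the counting SD in the median member. A member had 101 to 189713 reads in a library. The steadiest were Rpsa with an SD of 0.018, Rpl10 with 0.020, Rpl4 with 0.021 and Rps6 with 0.024. The largest were Rps27rt with 1.08, Rpl17 with 0.719, Rpl30 with 0.485 and Rpl29 with 0.276.

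**Figure D3:**
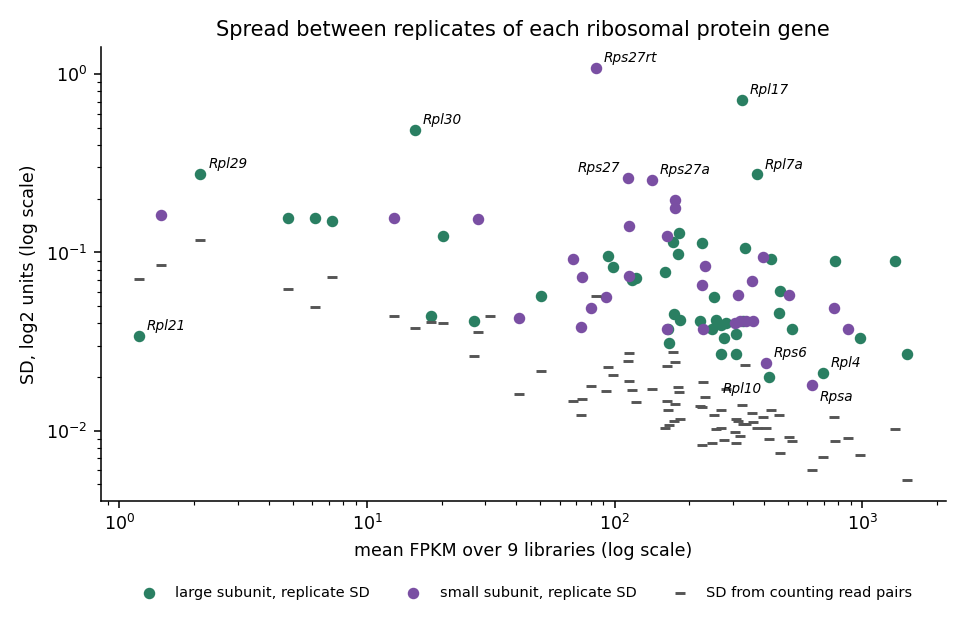
SD between replicates (points, log2 units) of each large (green) and small (purple) subunit gene against its mean FPKM, both on log scales, with the SD expected from counting read pairs as grey dashes. Rps27rt, Rpl17 and Rpl30 lie far above the dashes, while Rpsa, Rpl10, Rpl4 and Rps6 lie lowest among the abundant members.

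Of the 7 members with an SD above 0.2, 5 had copies that held at least 5% of the combined reads. In all, 77 members had at least 1 listed copy, and 762 copies were found. The copies held at least 50% of the combined reads for 8 members, 5% to 50% for 28 and under 5% for 45. The median SD of these sets was 0.156, 0.05 and 0.057, so it did not rise steadily with the share of the copies. Rps27rt, named as a retrogene of Rps27, lies on chromosome 9 rather than 3, and the annotation counts it as a coding gene of its own. Its coding sequence of 255 bases had 0 differences from that of Rps27, which begins with these 60 bases in the GENCODE vM21 transcripts.
Rps27: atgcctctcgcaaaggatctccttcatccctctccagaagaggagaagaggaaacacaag
Rps27rt had 35.9, 15.8 and 16.2 RPM (reads scaled to the depth of the library) in FFA-SIN, 13.3, 71.3 and 35.1 in FFA, and 65.9, 17.2 and 11.95 in NC. Rps27 had 130.0, 130.4 and 136.5 in FFA-SIN, 125.0, 77.8 and 120.6 in FFA, and 93.9, 115.5 and 133.7 in NC. The libraries high in Rps27rt, FFA replicate 2 and NC replicate 1, were the lowest in Rps27. Their sum was 165.9, 146.2 and 152.7 in FFA-SIN, 138.3, 149.0 and 155.7 in FFA, and 159.8, 132.7 and 145.7 in NC, with an SD of 0.106 on the log2 scale, against 0.263 for Rps27 alone.

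Rpl17 also varied against its copies, among them Rpl17-ps10. It had 592.1, 191.3 and 673.8 RPM in FFA-SIN, 446.2, 481.3 and 500.9 in FFA, and 271.4, 198.3 and 546.0 in NC. Its copies had 323.6, 677.2 and 247.7, then 409.4, 331.8 and 395.4, then 563.3, 623.0 and 252.3 in the FFA-SIN, FFA and NC libraries. In each group the library lowest in the gene was the highest in the copies. Their sum had an SD of 0.052 on the log2 scale, against 0.720 for the gene. With copies added, Rpl17 rose by 0.14 ± 0.04 in FFA-SIN against NC (adjusted p = 0.0106), where the gene alone gave 0.46 ± 0.48 (adjusted p = 0.453).

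Rpl30 is shown with its copy Gm12191, which took most of its reads, because 1 base in the coding sequence of 348 separates them. The lines give coding bases 66 to 125, counted from 1 at the start codon, of GENCODE vM21 transcripts on chromosomes 15 and 11, with the base that differs (G96A) in capitals.
Rpl30: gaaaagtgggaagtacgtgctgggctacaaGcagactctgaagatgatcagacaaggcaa
Gm12191: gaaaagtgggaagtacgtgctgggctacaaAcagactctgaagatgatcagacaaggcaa
Rpl30 had 36.2, 47.6 and 67.9 RPM in FFA-SIN, 35.5, 52.8 and 35.5 in FFA, and 35.4, 34.3 and 79.9 in NC. Gm12191 had 354.9, 355.1 and 349.1 in FFA-SIN, 382.9, 351.0 and 371.1 in FFA, and 378.3, 343.9 and 347.6 in NC. Rpl30 with its copies gave log2 fold changes of -0.02 ± 0.04, 0.01 ± 0.04 and -0.01 ± 0.04 in FFA-SIN against FFA, FFA against NC and FFA-SIN against NC.

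For Rps27a the copies did not level the libraries. Its processed copy Gm8430 differs from it by 1 base in 471 (A71G), shown in capitals in coding bases 41 to 100 from chromosomes 11 and 6.
Rps27a: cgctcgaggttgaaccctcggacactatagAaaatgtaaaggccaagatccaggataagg
Gm8430: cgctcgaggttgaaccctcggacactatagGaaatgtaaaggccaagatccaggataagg
Gm8430 had 6.84, 7.65 and 6.77 RPM in FFA-SIN, 19.4, 18.3 and 12.9 in FFA, and 5.08, 8.05 and 5.17 in NC, so it was high where Rps27a was low. Rps27a with all its listed copies had 386.5, 356.9 and 355.6 in FFA-SIN, 179.5, 164.1 and 244.5 in FFA, and 358.6, 262.8 and 326.2 in NC. FFA stayed below the others without overlap, and the log2 fold change was 0.92 ± 0.15 in FFA-SIN against FFA (adjusted p = 0.00108) and -0.69 ± 0.15 in FFA against NC (adjusted p = 0.00467). Copies of Rps27a other than the 9 listed were not analysed here, and how reads that fit several places were counted is not given in the sources used here.

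**Figure D4:**
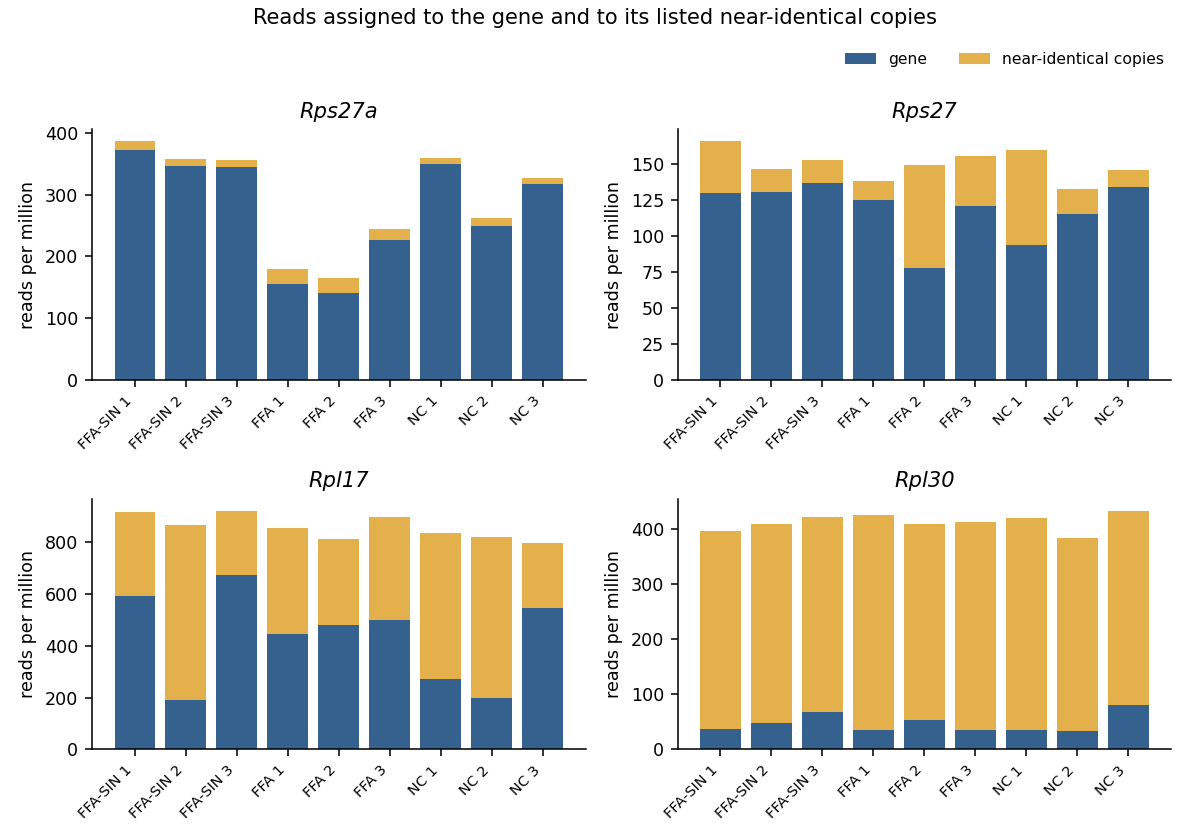
RPM (reads scaled to library depth) assigned to the gene (blue) and to its listed near-identical copies (yellow, stacked) in each library for Rps27a, Rps27, Rpl17 and Rpl30. The stacks of Rps27, Rpl17 and Rpl30 vary less than their blue part does, whereas the stack of Rps27a is lowest in the 3 FFA libraries.

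Adding the reads of copies to each member, which merges Rps27rt into Rps27 and leaves 80 rows, gave 3 higher and 2 lower in FFA-SIN against FFA, 24 higher and 2 lower in FFA against NC, and 41 higher and 1 lower in FFA-SIN against NC. Of the members called before, 3 of 3, 19 of 22 and 35 of 37 were called again. Rpl3, of the large subunit, and Rps2, of the small subunit, were the 2 that fell in FFA-SIN against FFA, named here after their values were seen. Rps2 with its copies, which hold 92.3% of its reads, had 682.2, 667.6 and 705.2 RPM in FFA-SIN, 711.9, 715.1 and 720.4 in FFA, and 618.3, 615.7 and 625.1 in NC. The groups did not overlap, with a rise of 0.21 ± 0.02 in FFA against NC (adjusted p = 6.9e-05) and a fall of 0.06 in FFA-SIN against FFA (adjusted p = 0.0491).

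The spread also went with the length of the coding sequence. The median SD between replicates was 0.098 in the 27 members with the shortest coding sequences (78 to 393 bases), 0.069 in the 27 of middle length and 0.037 in the 27 longest (585 to 1260 bases). In every group replicate 2 was the low library: 67 of 81 members lay below their group mean in FFA-SIN replicate 2, 67 in FFA replicate 2 and 77 in NC replicate 2. In NC replicate 2 the median deviation was -0.129 on the log2 scale for the short and -0.050 for the long members. In FFA replicate 3, a high library, it was 0.083 and 0.005. Calls were more frequent among long members. In FFA-SIN against NC, 5 of 27 short, 10 of 27 middle and 20 of 27 long members were called higher, beside 24.7% of all tested genes. The median log2 fold changes there were alike at 0.09, 0.10 and 0.10. In FFA against NC 2, 5 and 12 were called higher, beside 19.1% of all tested genes, with medians of 0.04, 0.05 and 0.08. The part of replicate 2 and of coding length in these calls was not tested.

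**Figure D5:**
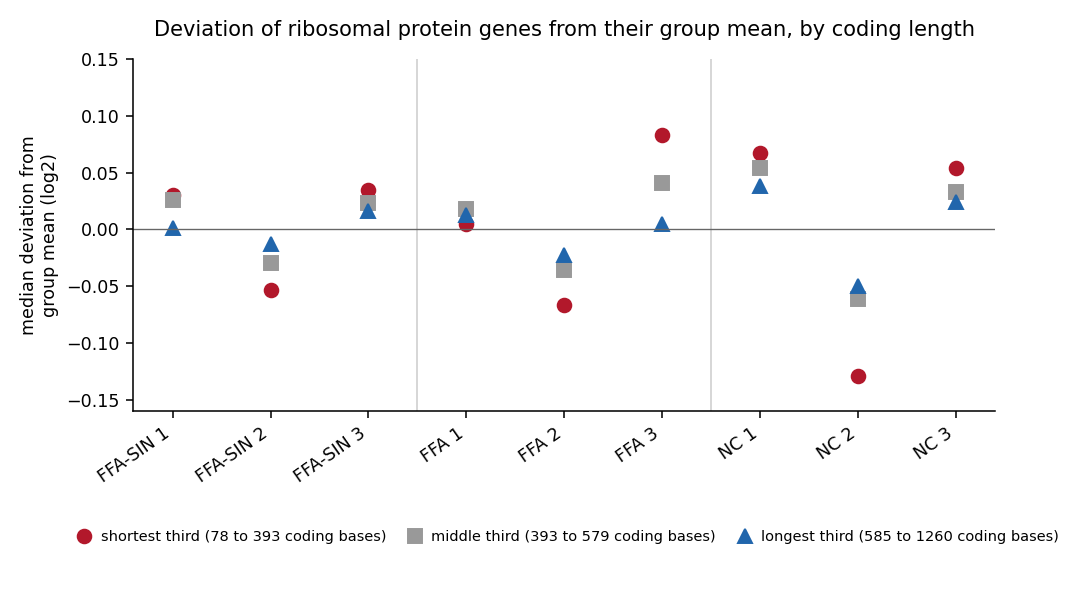
Median deviation of members from their group mean (log2 units) in each library, for short, middle and long members by coding length (27 genes each). Replicate 2 is below 0 in each group, and the short members lie farthest from 0 there, at -0.053, -0.067 and -0.129 in FFA-SIN, FFA and NC.

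Paralogue pairs were measured as well. Rpl7 averaged 470.0, 464.8 and 456.3 FPKM in FFA-SIN, FFA and NC, and its paralogue Rpl7l1 averaged 26.6, 27.7 and 26.8 FPKM. Rps27 averaged 126.8, 103.4 and 109.7 FPKM, and Rps27l, a gene induced by p53, 119.0, 115.8 and 109.4 FPKM. In the fit used throughout, none of these passed in any comparison, but under some alternatives Rps27l did. In FFA-SIN against NC its limma adjusted p was 0.0144 without NC replicate 1, 0.0491 with another scaling and 0.00384 with a replicate block. With the block it also passed in FFA against NC (adjusted p = 0.0289). Rps4x, on the X chromosome, rose by 0.16 ± 0.04 in FFA-SIN against NC (adjusted p = 0.00893), and Rpl36a did not pass. Rpl3l and Rpl39l, forms known from muscle and testis, averaged 0.043 and 0.012 FPKM over all libraries and were not members.

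Genes outside the ribosome whose mRNAs also carry the TOP motif were called in both directions. Of 23 such genes of translation, 2 rose and 3 fell in FFA-SIN against FFA, 4 rose and 4 fell in FFA against NC, and 6 rose and 5 fell in FFA-SIN against NC. Of all tested genes 31.2%, 37.5% and 51.3% passed in these comparisons, so the counts are near the background. The median log2 fold changes of the list were 0.02, 0.04 and 0.02. Tpt1, a translationally controlled growth protein, had 684.7, 665.6 and 661.0 FPKM in FFA-SIN, 603.7, 585.1 and 613.6 FPKM in FFA, and 560.0, 523.4 and 552.1 FPKM in NC, with no overlap between groups. It rose by 0.16 (adjusted p = 0.00334), 0.14 (adjusted p = 0.00553) and 0.30 (adjusted p = 3.09e-05) in FFA-SIN against FFA, FFA against NC and FFA-SIN against NC. Eif3f, a subunit of initiation factor eIF3, had 122.2, 123.0 and 130.6 FPKM in FFA-SIN, 132.5, 130.9 and 130.3 FPKM in FFA, and 156.4, 153.3 and 156.6 FPKM in NC, and fell by 0.24 in FFA (adjusted p = 0.000111) and by 0.31 in FFA-SIN (adjusted p = 1.01e-05) against NC. Pabpc1, the poly(A)-binding protein, fell by 0.16 (adjusted p = 0.00124) and 0.22 (adjusted p = 0.000111) in the same comparisons.

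Among 20 genes that govern the translation of these mRNAs or the making of ribosomes, 4 rose and 3 fell in FFA-SIN against FFA, 4 rose and 6 fell in FFA against NC, and 5 rose and 7 fell in FFA-SIN against NC. These counts too stand beside 31.2%, 37.5% and 51.3% of all tested genes, and nothing is read from them for the list. Eif4ebp1, which encodes the mTORC1 target that holds back eIF4E, had 57.5, 57.0 and 62.4 FPKM in FFA-SIN, 46.7, 46.6 and 44.4 FPKM in FFA, and 38.9, 37.3 and 40.3 FPKM in NC. It rose by 0.35 in FFA-SIN against FFA (adjusted p = 0.000184), 0.24 in FFA against NC (adjusted p = 0.00186) and 0.59 in FFA-SIN against NC (adjusted p = 2.53e-06). Myc, a transcription factor that drives ribosome making, had 33.8, 33.8 and 35.7 FPKM in FFA-SIN, 37.4, 37.4 and 38.2 FPKM in FFA, and 58.1, 57.1 and 57.5 FPKM in NC, and fell by 0.60 in FFA against NC (adjusted p = 2.85e-07). The RNA polymerase I subunit genes Polr1a and Polr1b fell by 0.17 (adjusted p = 0.00384) and 0.22 (adjusted p = 0.00134) in FFA against NC, and Larp1 fell by 0.12 (adjusted p = 0.00467). The ribosomal protein genes, by their median, lay slightly higher in that comparison.

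The 78 genes for proteins of the mitochondrial ribosome, which translates the few mRNAs of mitochondrial DNA, were called mostly in the comparisons with NC. In FFA against NC 26 rose and 0 fell, with a median log2 fold change of 0.08, and in FFA-SIN against NC 22 rose and 0 fell, with 0.05. In FFA-SIN against FFA 2 rose and 3 fell, with -0.02. Of all tested genes 37.5%, 51.3% and 31.2% passed in FFA against NC, FFA-SIN against NC and FFA-SIN against FFA, in either direction. Each is a larger share than that of these 78. By direction, 19.1%, 24.7% and 13.9% of all tested genes were higher in these comparisons, and 18.4%, 26.5% and 17.3% lower. Their median SD between replicates, 0.059, was close to that of the cytosolic members, 0.058. Whether the 2 sets differ was not tested.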

How the data were processed

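The deposited table holds the authors' FPKM values per gene; it does not name the unit, which was inferred from the values. Per the submitters' processing notes, reads were trimmed with Trimmomatic and aligned with HISAT2 to GRCm39. The sources used here give no versions, counting tool, annotation, treatment of multiply mapping reads or strand setting. Per the labels' protocols, libraries were stranded total RNA. At the exon length of GENCODE vM21, the FPKM of all 81 members stepped in whole reads (within 0.01), which gave reads and depth. Changes were fitted with limma (version 3.58.1, R 4.3.3) to log2(FPKM + 1), all 9 libraries together, for the 11659 genes whose mean reached 1 FPKM; the variance could vary with the level. Tests were two-sided, with Benjamini-Hochberg adjustment inside a comparison and a threshold of 0.05. This scale understates fold changes of low genes. The fit was tested on simulated data. Copies were found with BLAST 2.17.0. Python 3.11.15, pandas 2.3.3, numpy 2.4.6 and matplotlib 3.10.9 were used.

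Members and lists were chosen with earlier results of these data known. Named members were, per comparison, the 5 highest and 5 lowest changes past the threshold, the 4 highest and 4 lowest levels, the 4 largest SDs between replicates, 10 members with known roles, and paralogue pairs. SDs from reads cover counting error only. Alternatives changed the pseudocount (0.1), the filter, the scaling, the variance trend, the libraries fitted, the replicate block, and trends on length and GC (98.2% of tested genes had both); adding copies and leaving out replicate 2 of every group were chosen after seeing the data.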

Additional observations from a re-analysis of the deposited data

How the results depend on the processing

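No fold change of a named member that passed the threshold changed direction under any alternative tried, and Rpl14, Rps26, Rps6, Rpsa (higher) and Rpl22, Rps27a (lower) kept their call in FFA against NC throughout. Counts of members depended more on the setting. In FFA-SIN against FFA, 3 higher became 16 with the replicate block, 7 with only the 2 groups fitted, 10 with length and GC trends removed and 9 with replicate 2 of every group left out. There 0 lower became 2 (beside 3 higher) with TPM rescaling, 1 with the block, 1 without a variance trend, 1 with only the 2 groups and 2 with copies added. In FFA against NC, 19 higher became 6 with no filter, 12 with TPM rescaling and 11 with replicate 2 of every group left out. In FFA-SIN against NC, 35 higher became 18 with no filter, and 2 lower became 1 with a minimum of 5 FPKM and 1 with copies added. The cause was not tested. Shares of all tested genes called under each alternative, the leave-one-out fits included, are not given here. Whether these changes in counts are particular to the members can therefore not be read from them. Both settings on copies and on replicate 2 were chosen after seeing the data. Summed in TPM, a different unit, members averaged 71299, 69296 and 67179 in FFA-SIN, FFA and NC, and the FFA-SIN and NC libraries overlapped.

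Leaving out 1 library at a time gave 2 to 10 higher and 0 to 3 lower in FFA-SIN against FFA, 8 to 22 and 2 to 3 in FFA against NC, and 22 to 40 and 2 to 4 in FFA-SIN against NC. Medians ran over 0.02 to 0.07, 0.02 to 0.09 and 0.07 to 0.12, the summed FPKM over 22459 to 23130 in FFA-SIN, 21723 to 22253 in FFA and 20633 to 21571 in NC, and the median SD over 0.043 to 0.063.

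What a replicate number stands for is not said in the sources used here. The deviations of same-numbered libraries from their group means correlated at -0.01 to 0.17 over all tested genes. Only FFA-SIN replicate 3 with NC replicate 3 passed 0.1 among them. Differently numbered libraries correlated at -0.15 to 0.11. The numbers were therefore not taken as pairs, although replicate 2 was low for most members in each group. With the replicate block, 16 members were higher and 1 lower in FFA-SIN against FFA, 24 and 3 in FFA against NC, and 51 and 2 in FFA-SIN against NC. The block also brought Rplp1 past the threshold in FFA-SIN against FFA (limma adjusted p = 0.00898) and, lower, in FFA against NC (adjusted p = 0.0108). Rpl22l1 then passed, higher, in FFA-SIN against FFA (adjusted p = 0.034) and in FFA-SIN against NC (adjusted p = 0.0228). Rps27l passed, higher, in both comparisons with NC.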

Other observations

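The Rps6k kinases, which share the start of their symbol with the small subunit genes, include the S6 kinases that phosphorylate Rps6. Of the 8 listed, 5 reached 1 FPKM and were tested, and 3 fell in FFA-SIN against FFA while 0 rose, where 31.2% of all tested genes passed and 17.3% were lower. Rps6ka1, a kinase downstream of ERK, had 16.7, 17.4 and 17.6 FPKM in FFA-SIN, 20.5, 20.3 and 19.7 FPKM in FFA, and 19.2, 21.7 and 20.3 FPKM in NC. It fell by 0.22 in FFA-SIN against FFA (limma adjusted p = 0.00344). Rps6ka3, of the same family, had 7.90, 8.16 and 7.94 FPKM in FFA-SIN and 9.37, 8.77 and 9.01 FPKM in FFA, and fell by 0.16 (adjusted p = 0.00294). Rps6kb2, an S6 kinase, fell by 0.11 (adjusted p = 0.0427), and Rps6kb1 gave -0.07 (adjusted p = 0.12). In FFA against NC 0 of the 5 passed.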
